A study of Mus musculus with 28 samples.

Results

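Plasma extracellular vesicles (EVs) of KlHET mice that received neuromuscular electrical stimulation (NMES) were compared with those of KlHET mice that received none, across all classes of small non-coding RNA in the deposited count table. The members were chosen by label alone, and made up 16 of the 28 libraries of the study, with 8 libraries labelled KLOTHO HET NMES and 8 labelled KLOTHO HET Control, each from a different mouse. KlHET mice carry 1 disrupted copy of Kl in every cell, in the strain B6;129S5-Kltm1Lex/Mmucd, and all mice were 2 months old. KlHET NMES mice had 5 sessions on alternate days, with a current of 9 mA along the sciatic nerve of both hind legs, given as 10 stimulations in each of 2 sets per leg, under 2.5% isoflurane. KlHET control mice were given the same isoflurane for 15 min on the session days and no current. Blood was drawn 24 h after the last session. WT NMES and WT control mice, 6 of each and with intact Kl, entered the same statistical fit, where they shared the filter on low counts and the estimate of spread, and were used to test whether the NMES effect differed between genotypes. Kl mRNA is not among the RNAs counted, so the genotype labels could not be checked from these data, and whether a value counts as higher or lower rests on the treatment labels as given.

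EVs are membrane-bound particles that cells release into blood and that carry short RNAs between tissues. MicroRNAs (miRNAs) are short RNAs that repress mRNAs through a seed near their 5′ end, and their precursors are the hairpins they are cut from. tRNAs and their fragments, the spliceosomal snRNAs, the snoRNAs that guide RNA modification, and circular RNAs (circRNAs) made by back-splicing are also found in plasma EVs. KLOTHO is a hormone and co-receptor tied to aging, and contracting muscle is known to release EVs, which is why plasma EVs were collected after NMES.

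Library totals ran from 531261 to 998236 counts (median 829377) in KlHET NMES and from 764816 to 1574440 counts (median 1042480) in KlHET control mice. Tested miRNA entries received 8750 to 62491 counts per library, which limits what could be detected among the scarcer ones. Some libraries stood apart from the rest of their group, and results that rest on them are given with and without them. In KlHET control library J3517, miR-8117 alone took 65.7% of the miRNA counts and tRNA-Cys-GCA took 41.5% of the tRNA counts. Its scaling factor for miRNAs was so small (0.0346) that 1 count in it equals 463 CPM (the count per 1000000 TMM-scaled counts of its class), so raw counts are given where it dominates. KlHET control library J3578 was rich in muscle miRNAs, KlHET control library J3549 in tRNA-Gly-GCC, and KlHET NMES library J3537 in miRNAs known from neurons. Outside these 16 libraries, WT control library A3206 was rich in the same neuronal miRNAs.

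The miRNAs on which the results turn are shown 5′ to 3′ from RefSeq (GRCm38.p6), with the seed (bases 2 to 8) in capitals. miR-221-3p and miR-222-3p are shown as a pair because they share a seed and only miR-221-3p was called. Both lie between annotated genes on the minus strand, at chrX:19146307-19146329 and chrX:19146901-19146923. miR-8117 (chr5:50252823-50252843, plus strand, in an intron of the pseudogene Gm7205) and miR-8109 (chr8:85700935-85700955, plus strand, between genes) are shown because 1 library held most of their counts. miR-9-5p (chr3:88215613-88215635, chr7:79505279-79505301 and chr13:83738821-83738843, all plus strand and within long non-coding RNA genes), miR-128-3p (introns of R3hdm1, chr1:128202404-128202424, plus strand, and Arpp21, chr9:112118644-112118664, minus strand) and miR-7a-5p (chr7:78888295-78888317, plus strand, between genes, and an intron of Hnrnpk, chr13:58392841-58392863, minus strand) are the miRNAs whose NMES effect was called different from that in WT mice. let-7d-5p (chr13:48536078-48536099, minus strand, within an exon of 6720427I07Rik, a long non-coding RNA) stands for the let-7 family, of which 8 tested members share this seed.
miR-221-3p: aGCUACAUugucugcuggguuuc
miR-222-3p: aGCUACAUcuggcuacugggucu
miR-8117: gCUCGUGUggaacagaagggg
miR-8109: gCGCCGCGugccggccgcggg
miR-9-5p: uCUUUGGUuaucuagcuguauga
miR-128-3p: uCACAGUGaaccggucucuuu
miR-7a-5p: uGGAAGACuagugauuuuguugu
let-7d-5p: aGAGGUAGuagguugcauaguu

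The make-up of the vesicle RNA by class did not separate the groups. circRNA entries took 66.5% to 88.9% of counts (median 82.5%) in KlHET NMES libraries and 53.9% to 85.0% (median 76.9%) in KlHET control libraries. The mean difference was 10.5 percentage points (81.5% ± 6.95 against 71.1% ± 12.1, mean ± SD of 8 libraries a group, p = 0.0594 by a two-sided exact permutation test, adjusted over 5 classes 0.206). tRNAs took 7.99% to 30.0% (median 13.8%) with NMES and 12.1% to 43.6% (median 20.1%) in controls. Their mean share was 15.3% ± 6.85 against 25.0% ± 12.9 (SD over 8 libraries a group, p = 0.0825 by the exact permutation test, adjusted 0.206). The controls with the highest tRNA shares were J3549 (43.6%), J3528 (39.8%) and J3578 (36.5%), whereas J3537, at 30.0%, was the highest NMES library. More vesicles from a source and more RNA per vesicle cannot be told apart in such bulk samples.
miRNAs took 1.68% to 2.69% of counts (median 2.07%) with NMES and 1.18% to 4.20% (median 1.98%) in controls (exact permutation test, p = 0.452, adjusted 0.564). The snRNA share was 0.362% to 1.80% with NMES and 0.441% to 0.969% in controls apart from J3517, which reached 6.27% (p = 0.882, same exact test). snoRNAs stayed between 0.0514% and 0.221% with NMES and between 0.0330% and 0.256% in controls (p = 0.416, same exact test). The number of different tRNAs with at least 1 count was 402 ± 7.17 with NMES and 411 ± 12.3 in controls (SD over 8 libraries a group, p = 0.103 by the exact permutation test, adjusted 0.515). For miRNA entries it was 266 ± 24.8 with NMES and 279 ± 109 in controls (p = 0.801, same exact test). The miRNA numbers spread more widely among controls (140 to 513 per library) than with NMES (235 to 305).

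**Figure D1:**
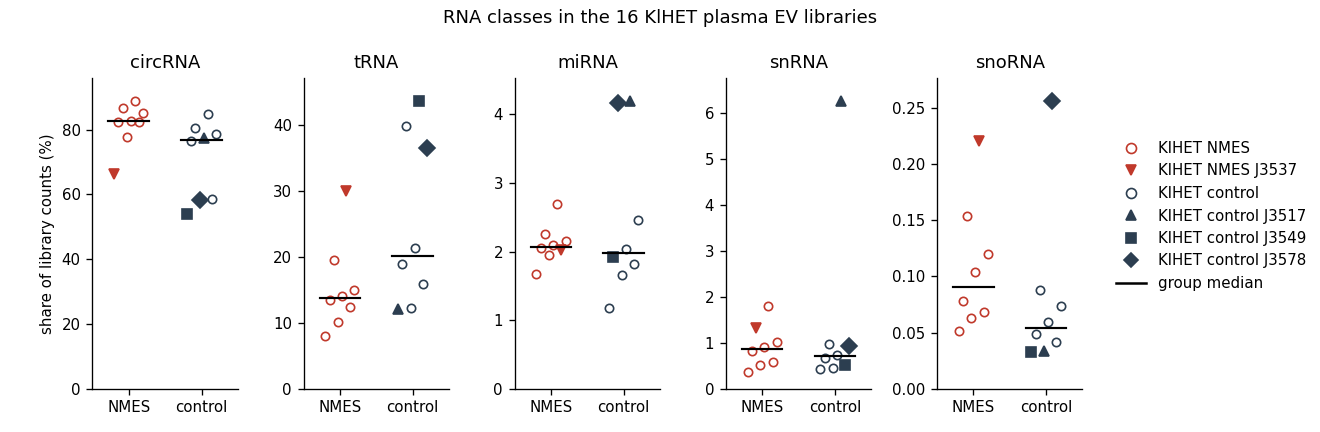
Share of all counts in each library (y axes, percent, each panel with its own scale) taken by each of the 5 RNA classes, with KlHET NMES to the left of KlHET control. Each point is 1 library, the black lines mark group medians, and J3537, J3517, J3549 and J3578 have their own filled markers; the groups overlap in every class, and the snRNA share of J3517 (6.27%) lies above the other 15 libraries.

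Differential abundance was tested in each class by itself with edgeR's quasi-likelihood test, and an RNA was called where its p, adjusted by the Benjamini-Hochberg method, was under 0.05. In the comparison of KlHET NMES with KlHET control EVs, 147 of 7008 tested circRNAs were called (2.10%), 6 of 129 miRNA entries (4.65%), 54 of 341 tRNA entries (15.8%) and 22 of 93 snoRNAs and snRNAs (23.7%). Summed by amino acid and anticodon, 9 of 47 tRNA families were called (19.1%). Nearly all the calls were lower with NMES, and the 11 higher ones were circRNAs. None of the 7571 entries (0%) had levels in the 8 NMES libraries that lay wholly outside the range of the 8 controls. Without J3517, edgeR called 2 miRNAs and 0 entries in the other classes. At an unadjusted p under 0.05, that fit had 451 of 6935 tested circRNAs, 37 tRNAs, 2 snoRNAs and snRNAs and 4 tRNA families. At that threshold, chance alone gives about 1 in 20 of independent entries, but copies that share reads are not independent. DESeq2 by default replaces counts that stand out within groups as large as the KlHET ones (8 libraries), but not in the WT groups of 6. It called 18 circRNAs, 1 miRNA, 20 tRNAs, 0 snoRNAs and snRNAs and 0 families. An edgeR fit of the 16 KlHET libraries alone called 0 in every class. At an unadjusted p under 0.05, it had 513 of 5478 tested circRNAs, 14 miRNAs, 84 tRNAs, 0 snoRNAs and snRNAs and 12 families. Outside the circRNAs, the number tested can differ between fits and is given only for all libraries (129 miRNA entries, 341 tRNA entries, 93 snoRNAs and snRNAs and 47 families). The counts of those classes in the smaller fits are thus not shares to set against 1 in 20.
The called circRNAs that were lower with NMES had their highest count in J3517 in 115 of 136 cases, and a median of 61.3% of all KlHET counts for them lay in that library. Their median log2 difference was -3.45, and it was -0.78 without J3517. For the called tRNA entries the median was -3.74, against 0.17 without J3517, and for the called snRNAs -3.72, against 0.49.

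**Figure D2:**
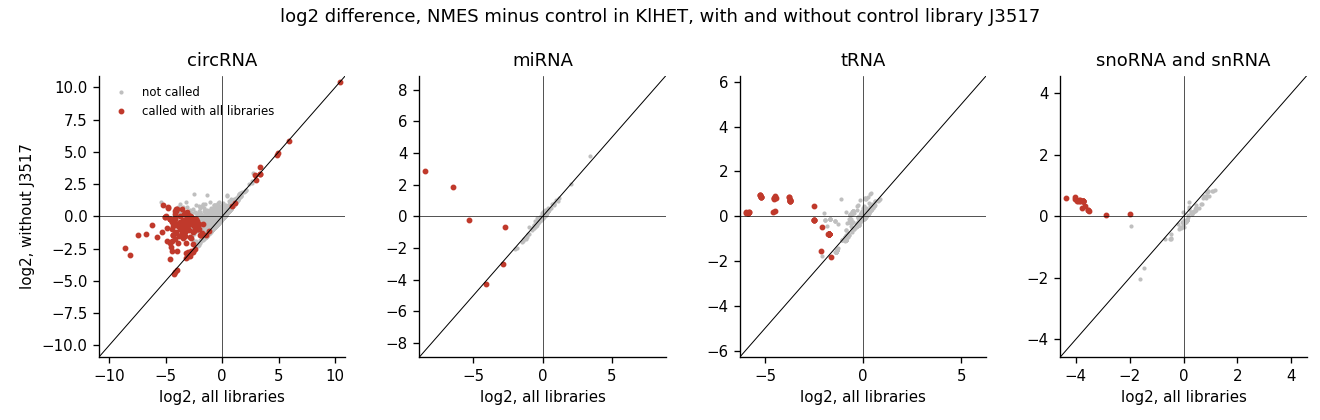
Log2 difference between KlHET NMES and KlHET control with all libraries (x axes) and without J3517 (y axes) for the tested entries of each RNA class, with called entries in red, the others in grey and a diagonal at equal values. The called snRNAs lie above 0 on the y axis and below 0 on the x axis, most called tRNAs lie far above the diagonal, and the 11 higher circRNAs lie close to it (median log2 difference 3.30 with all libraries and 3.28 without J3517).

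Among miRNAs, 6 entries fell with NMES and 0 rose, all at an adjusted p of 0.0169 (edgeR). At an unadjusted p under 0.05, 13 entries were lower (10.1%) and 1 was higher (0.775%), and the median log2 difference over all 129 was 0.05. The 6 were miR-221-3p, the precursors mir-133a-2, mir-6240 and mir-6236, and the mature miR-8109 and miR-8117. J3517 held the highest count of mir-6240, miR-8109 and miR-8117, J3578 those of mir-133a-2 and miR-221-3p, and J3549 that of mir-6236.
miR-221-3p, an miRNA abundant in endothelium and vascular smooth muscle, was lower by a log2 difference of -2.85 (SE 0.72). SEs given with edgeR differences were back-calculated from the F statistic. Its level was 106 to 950 CPM (median 685) in NMES libraries and 110 to 16741 CPM (median 999.7) in controls. All 8 NMES libraries lay below the control median, but 4 controls (110, 242, 451 and 463 CPM) lay inside the NMES range. In raw counts, J3578 had 1059 and J3549 had 374, and the other 14 libraries had 1 to 41. The log2 difference was -3.04 without J3517 (adjusted p = 0.0308), -2.13 without J3578 (adjusted p = 0.102) and -2.19 without either (adjusted p = 0.185, edgeR). Without J3537 its adjusted p was 0.0503, and 0 entries were then called by edgeR (14 at an unadjusted p under 0.05). DESeq2 also called it, at -2.87 (adjusted p = 0.0031). Without J3517, J3549, J3578 and J3537 the difference was -0.78 (edgeR adjusted p = 0.992). Its cluster partner with the shared seed, miR-222-3p, had 0 to 19 counts with NMES and 0 to 43 in controls, and a log2 difference of -0.16 (SE 0.65, edgeR adjusted p = 0.978, and 0.029 under library size alone).
mir-133a-2, a hairpin of the muscle miRNA miR-133a, differed by a log2 of -4.10 (SE 1.09). It had 0 to 7 counts with NMES and 0 to 15 in 7 controls, while J3578 had 1307. Without J3578 it had too few counts to be tested.
miR-8117 had 9 to 27 counts in 7 NMES libraries and 652 in J3527, against 13 to 33 in 7 controls and 43440 in J3517. Its log2 difference was -8.46 (SE 2.26) with all libraries and 2.84 without J3517 (edgeR adjusted p = 0.0885), a fit in which J3527 held the highest count. miR-8109 had 1 to 68 counts with NMES, against 2 to 23 in 7 controls and 2447 in J3517, and its difference was -6.43 with J3517 and 1.83 without (adjusted p = 0.341, edgeR).
mir-6240 had 257 to 485 counts with NMES, against 146 to 449 in 6 controls, 1688 in J3549 and 14103 in J3517 (log2 difference -5.35, and -0.24 without J3517). mir-6236 had 168 to 356 counts with NMES, against 163 to 457 in 6 controls, 1256 in J3517 and 1833 in J3549 (log2 difference -2.71, and -0.66 without J3517). The calls of miR-8117, miR-8109, mir-6240 and mir-6236 were lost without J3517.

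**Figure D3:**
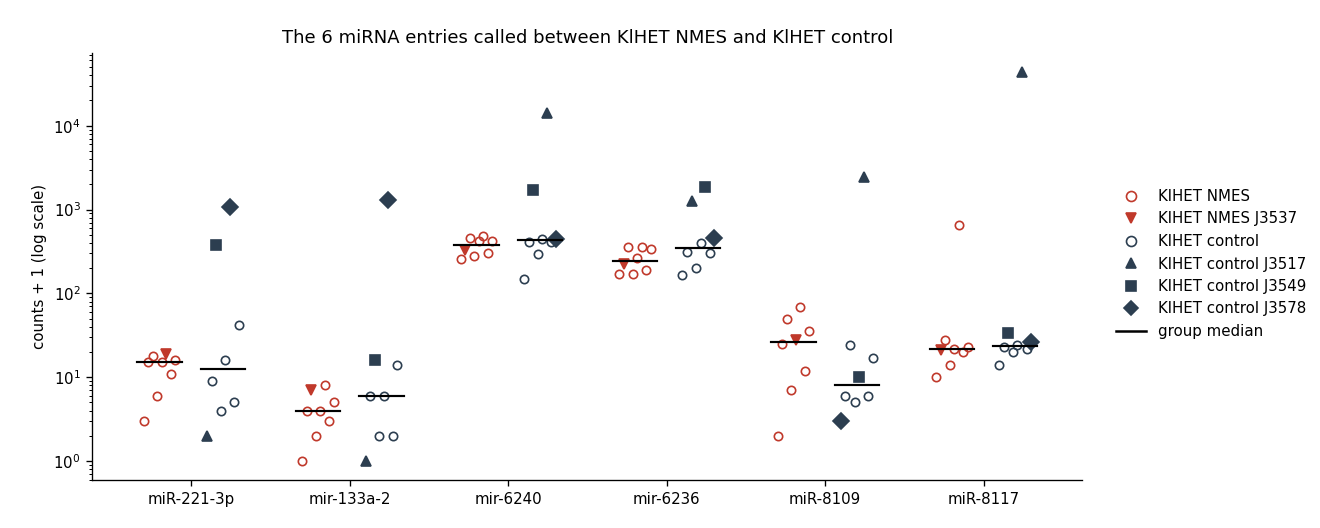
Raw counts (y axis, log scale of count + 1) of the 6 called miRNA entries in each library, KlHET NMES left of KlHET control, with black lines at group medians and filled markers for J3537, J3517, J3549 and J3578. Each point is 1 library; 1 or 2 control libraries stand far above the rest for every entry (43440 counts of miR-8117 in J3517, for example), and most other controls lie within the range of the NMES libraries.

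Only miR-221-3p and miR-328-3p kept an unadjusted p under 0.05 and their direction in the fit of all libraries and in each of the 16 fits that left out a KlHET library. miR-328-3p, an miRNA also found in platelets and heart, was at 526 to 3186 CPM with NMES (median 1852) and at 1273 to 3292 CPM in 6 controls, with 13841 in J3549 and 11809 in J3578. Its log2 difference was -1.50 (SE 0.47, edgeR adjusted p = 0.0676), and -0.58 without J3517, J3549, J3578 and J3537 (adjusted p = 0.992). Other lower miRNAs with an unadjusted p under 0.05 were miR-320-3p (-1.16), miR-423-5p (-0.64), miR-744-5p (-1.34), miR-1839-5p (-0.97), mir-378a (-1.88) and mir-10a (-2.03), with adjusted p of 0.1996 or more. J3549 and J3578 held the highest counts of miR-320-3p (2024 and 4414), where the other controls had 7 to 436 and the NMES libraries 156 to 556.
Of the 10 most counted miRNA entries, mir-6240 and miR-8117 were among the 6 called, and the other 8 showed no difference that passed the test. mir-5119 was at 14247 to 256818 CPM with NMES and 44453 to 335411 CPM in controls (log2 difference -0.03, SE 0.48). Together with its mature arm it made up 7.36% to 43.8% of miRNA counts with NMES (median 26.9%). In controls the 2 made up 0.337% (J3517) to 49.6% (J3526), with a median of 23.5%. miR-148a-3p, which is abundant in liver and B cells, was at 39161 to 102274 CPM with NMES (median 85184) and 14974 to 87078 CPM in controls (median 68064), a log2 difference of 0.40 (SE 0.35). miR-215-5p, an epithelial miRNA, differed by 0.29 (SE 0.29, edgeR adjusted p = 0.978), with all 8 NMES libraries above the control median.

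None of the miRNAs of skeletal muscle, the stimulated tissue, was called higher with NMES. Of the 6 myomiRs (miR-1a-3p, miR-133a-3p, miR-133b-3p, miR-206-3p, miR-208b-3p and miR-499-5p), 2 had enough counts to be tested, 0 passed in either direction at an unadjusted p under 0.05, and their median log2 difference was 0.10. The summed count of the 6 was 49 to 257 with NMES (median 101.5) and 7 to 89 in 7 controls, and 2997 in J3578. miR-206-3p, a miRNA of skeletal muscle, was at 585 to 2639 CPM with NMES (median 1189.6) and 0 to 4616 CPM in controls (median 796). Its log2 difference was -0.01 with all libraries (SE 0.54), with a sign that depended on the scaling (-0.48 under TMM over all classes and 0.15 under library size alone), and 0.85 without J3578 (edgeR adjusted p = 0.727). miR-1a-3p, of heart and skeletal muscle, differed by 0.21 with all libraries (-0.13 under TMM over all classes) and 0.94 without J3578 (adjusted p = 0.727). In J3578, miR-133a-3p had 1525 counts, where the other 15 libraries had 0 to 24, and miR-133b-3p had 359. The defining markers miR-208b-3p and miR-499-5p of slow and cardiac muscle were at 0 in all 16 libraries, J3578 included. Since mir-133a-2 was high in J3578 along with miR-133a-3p and miR-133b-3p, it is named with those 2. Their part in its call was not tested beyond leaving J3578 out.
miR-378a-3p, encoded within Ppargc1b and tied to mitochondrial metabolism, was at 1589 to 20159 CPM with NMES and 1388 to 29571 CPM in 7 controls, with 97601 in J3578. The log2 difference was -1.23 (SE 0.67) with all libraries and -0.19 without J3578. Over the 3 tested members of the insulin and adipose list (miR-103-3p, miR-378a-3p and miR-27b-3p) the median was -0.67, and 0 passed at an unadjusted p under 0.05.

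Neuronal miRNAs were high in J3537, the NMES library that stood apart. Of 10 listed neuronal miRNAs 9 were in the table and 3 could be tested, with 1 higher and 0 lower at an unadjusted p under 0.05 and a median log2 difference of 2.02, the value of miR-218-5p (-0.33 in DESeq2). Their summed count was 967 in J3537, 46 to 77 in the other NMES libraries and 10 to 225 in controls, with the control maximum in J3578. miR-9-5p, a brain miRNA that acts in neural progenitors, was at 260 to 17522 CPM with NMES (median 601) and 0 to 1851 CPM in controls (median 148). All 8 NMES libraries were above the control median. However, 1 count equals 37.5 to 77.5 CPM in NMES libraries and 15.8 to 463 CPM in controls, so the lower levels rest on few counts. The log2 difference was 3.39 (SE 1.22, edgeR adjusted p = 0.153), and 1.19 in DESeq2. It was 1.71 without J3537 (edgeR adjusted p = 0.591). miR-128-3p had 484 counts in J3537, 36 to 60 in the other NMES libraries and 5 to 167 in controls. Its log2 difference was 1.16, 0.15 without J3537 and 0.0085 in DESeq2. miR-218-5p, of motor neurons, had 134 counts in J3537, 0 to 9 in the other NMES libraries and 0 to 18 in controls, and was too scarce to be tested without J3537. miR-124-3p, the defining neuronal miRNA, had 14 counts in J3537 and 0 or 1 elsewhere.

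The let-7 family, which restrains growth and insulin signalling genes, gave no calls. Of 10 members 8 could be tested, 0 passed at an unadjusted p under 0.05 in either direction, and the median log2 difference was 0.12. The summed let-7 count was 957 to 2787 with NMES (median 1435) and 603 to 5193 in 7 controls, with 126 in J3517. let-7d-5p was the lowest of these by p. It was at 583 to 1937 CPM with NMES (median 752) and 991 to 2339.7 CPM in controls (median 1581), and 6 of the 8 NMES libraries lay below the lowest control. Its log2 difference was -0.78 (SE 0.41, edgeR adjusted p = 0.528), and in WT mice, in the same fit, -1.39 (adjusted p = 0.0806). WT NMES libraries were at 348 to 939 CPM of let-7d-5p, against 444 to 1212 CPM in 5 WT controls and 5923 CPM in A3206.
For miRNAs of erythroid cells, 5 of 8 listed were tested, 0 passed and the median log2 difference was 0.05. miR-451a, the red cell miRNA, differed by -0.41 (SE 0.30), with 2365 to 7051 CPM with NMES and 4200.3 to 12948 CPM in controls. Leukocyte and platelet miRNAs gave 3 tested of 7, 0 passing and a median of 0.21. All 3 liver miRNAs were tested, 0 passed and the median was -0.30. miR-122-5p, the hepatocyte miRNA, was at 3114 to 41352 CPM with NMES and 4877 to 37480.4 CPM in controls. Of 6 endothelial and vessel wall miRNAs 4 were tested, miR-221-3p was lower and the median of the 4 was -0.05. miR-126a-3p, the endothelial miRNA encoded in Egfl7, was at 2231 to 8212 CPM with NMES and 2093 to 4281 CPM in controls (log2 difference 0.42, SE 0.25, edgeR adjusted p = 0.582). Epithelial miRNAs gave 3 tested of 5, 0 passing and a median of 0.10.

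**Figure D4:**
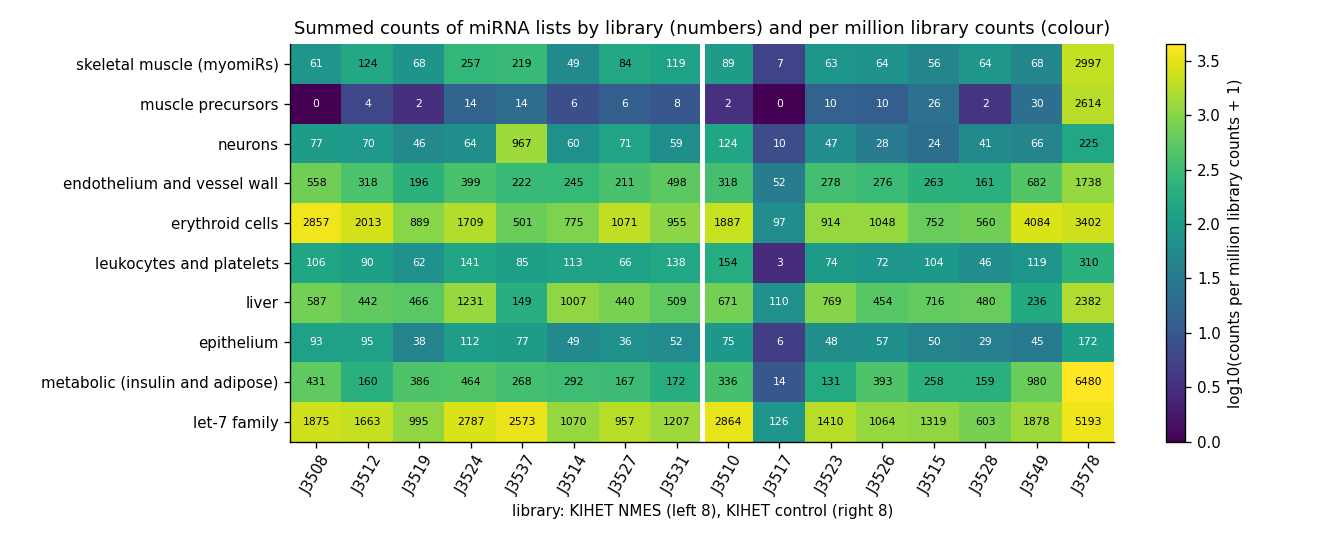
Summed raw counts (numbers in the cells) of 10 miRNA lists (down the page) in each library (across), with the 8 KlHET NMES libraries left of the white line and the 8 KlHET control libraries right of it; colour gives log10 of the sum scaled to the library total, plus 1. J3578 has the highest sum of the myomiRs (2997), J3537 that of the neuronal miRNAs (967), and J3517 the lowest let-7 sum (126).

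tRNA fragments of Glu-CTC and Gly-GCC, which are known to be abundant in blood, made up 36.1% to 71.8% of tRNA counts with NMES (median 48.6%). In controls the median was 65.1%, with 1.73% in J3517 and 86.5% in J3549. Glu-CTC had 11609 to 45925 counts with NMES (median 27416) and 30179 to 308944 in 7 controls, against 1759 in J3517. Its level was lower in all 8 NMES libraries than the control median, by a log2 difference of -1.43 (SE 0.56, edgeR adjusted p = 0.0634). The difference was -1.61 without J3517 (adjusted p = 0.164) and -1.33 without J3517, J3549, J3578 and J3537 (adjusted p = 0.828), and it was called in none of these fits. Glu-TTC differed by -1.03 (SE 0.40, adjusted p = 0.0634, edgeR). Gly-GCC had 12335 to 108561 counts with NMES and 33926 to 459512 in 7 controls, a log2 difference of -1.35 (adjusted p = 0.153), which was -0.45 without J3549. Gly-CCC differed by -1.29, and by -0.43 without J3549.
The 9 families that were called lower held most of their excess in J3517. Cys-GCA, a family of 60 entries, had 309 to 2611 counts with NMES, against 984 to 2301 in 7 controls and 79420 in J3517 (log2 difference -4.61, SE 1.16, edgeR adjusted p = 0.0218, and 0.04 without J3517). Ala-AGC had 1249 to 2766 counts with NMES, against 1055 to 2663 in 7 controls and 45009 in J3517 (log2 difference -3.28, and 0.31 without J3517). Gln-TTG (-4.53, and 0.80 without J3517) and Gln-CTG (-3.79, and 0.66) turned sign as well. Ala-CGC (-1.48, and -0.57 without J3517), Trp-CCA (-2.86, and -1.20), Asp-GTC (-1.80, and -0.88), Pro-TGG (-2.33, and -0.16) and Arg-CCT (-1.89, and -0.12) kept their sign and lost their call. Asp-GTC was highest in J3578 (4197 counts), followed by J3517 (3333). Of the families with higher levels, Met-CAT, the elongator methionine tRNA, led with 4 to 69 counts with NMES and 2 to 36 in controls (log2 difference 1.07, SE 0.50, adjusted p = 0.118, edgeR).
The scaling of libraries moved the tRNA values. Over all 341 tRNA entries the median log2 difference was -0.48 under TMM and 0.57 under library size alone, and over the 47 families it was -0.46 and 0.63. For miRNAs the median moved to 0.31 under library size alone and for circRNAs to 0.17. Under library size alone Glu-CTC differed by -0.42, Gly-GCC by -0.09, Glu-TTC by 0.22 and Met-CAT by 1.83, so that Glu-TTC turned sign, whereas Glu-CTC was lower and Met-CAT higher under every scaling tried (TMM, TMMwsp, TMM over all classes, library size alone and DESeq2).

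**Figure D5:**
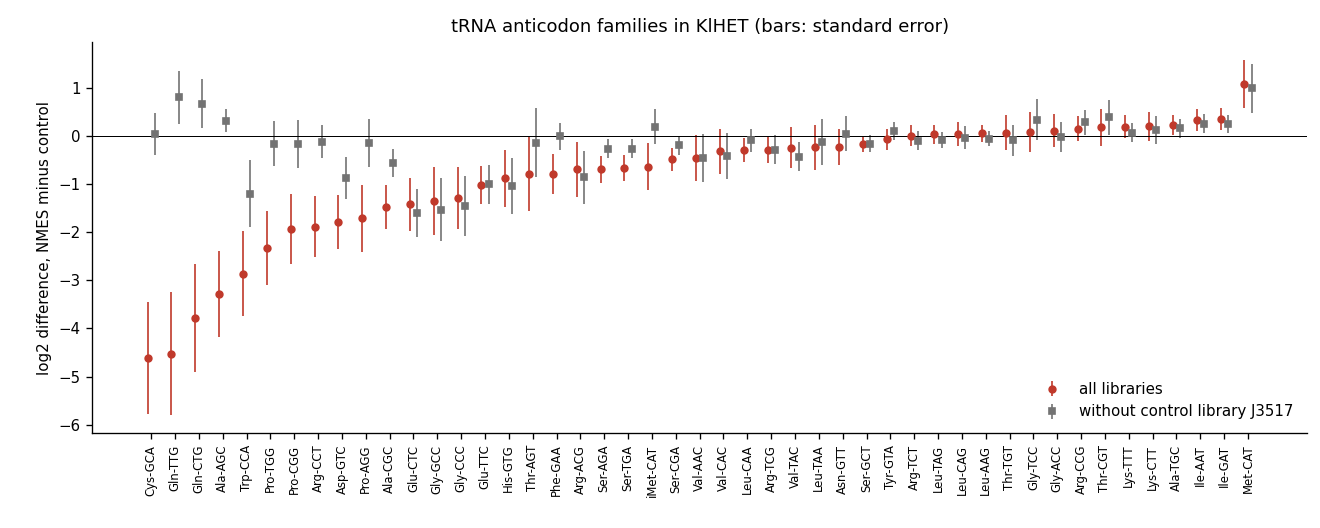
Log2 difference between KlHET NMES and KlHET control (y axis) of the 47 tRNA anticodon families (x axis), with all libraries in red and without J3517 in grey; bars are SE. Cys-GCA, Gln-TTG, Gln-CTG and Ala-AGC lie at -3.28 or below with all libraries and at 0.04 to 0.80 without J3517, while Glu-CTC stays at -1.43 and -1.61.

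Single tRNA entries have near-identical copies with which they can share reads, so calls of single copies are uncertain. The 54 called entries had 38 distinct count profiles. tRNA-Ala-AGC-5-1, 5-2 and 5-3 had the same counts in every library, 10 to 63 with NMES, 6 to 113 in 7 controls and 4980 in J3517 (log2 difference -5.86, SE 1.41, edgeR adjusted p = 0.0124, and 0.15 without J3517). tRNA-Ala-AGC-10-1 and 12-1 differed from them by no more than 6 counts, in J3517. In contrast, tRNA-Ala-AGC-1-1 and 2-1 had only 48 counts in J3517, with 312 to 763 with NMES and 263 to 564 in the other controls, so that copies of the same anticodon went opposite ways within that library. Entries with an unadjusted p under 0.05 in all fits that left out a library were Asp-GTC-2-1 (-2.15) and Ala-CGC-5-1 (-1.65), which were lower, and the copies Tyr-GTA-3-1 and 3-2, which were higher. tRNA-Tyr-GTA-3-1 was at 511 to 1089.6 CPM with NMES and 403 to 571 CPM in controls, with all 8 NMES libraries above the control median (log2 difference 0.52, SE 0.21, adjusted p = 0.0921, edgeR). The whole Tyr-GTA family did not share this rise under TMM, at -0.08 (SE 0.22, edgeR adjusted p = 0.849). Its sign depended on the scaling (0.94 under library size alone).

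All 22 called snoRNA and snRNA entries shared sequence with U2 snRNA, the spliceosomal RNA that pairs with the intron branch point. Of these, 13 aligned over its whole length and 9 over part of it, with at least 57 bases aligned. By alignment, 25 of the tested entries were most like Rnu2-10 (U2), of which 22 were called, and 41 were most like Rnu1b1 (U1, which pairs with the 5′ splice site), of which 0 were called (edgeR adjusted p under 0.05). Entries that share U2 sequence can share reads, and the 22 had 19 distinct count profiles, so they cannot be counted as 22 separate findings. Rnu2-10 (GENCODE vM21, GRCm38, chr11:101658238-101658428, plus strand) is shown 5′ to 3′ as DNA because the alignment of every called entry spans its bases 6 to 57, which are in capitals. Identity was 84.9% to 100% over the aligned bases, and 13 of the 22 entries align over all 191 bases. Gaps were allowed and their positions were not checked, so some bases in capitals can be unaligned in some entries.
Rnu2-10: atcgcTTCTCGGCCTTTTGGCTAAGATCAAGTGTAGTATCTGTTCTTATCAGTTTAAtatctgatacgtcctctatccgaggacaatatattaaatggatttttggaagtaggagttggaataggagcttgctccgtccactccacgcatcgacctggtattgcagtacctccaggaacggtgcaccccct
Rnu2-10 had 97, 123, 134, 192, 259, 302, 381 and 461 counts in NMES libraries, against 118, 175, 193, 234, 235, 247 and 265 in 7 controls and 5641 in J3517. Apart from J3517 the controls thus lay within the NMES range. The log2 difference was -3.71 (SE 1.06, edgeR adjusted p = 0.00568) with all libraries, 0.49 without J3517, -0.04 under library size alone and 0.53 in DESeq2. J3517 held the highest count of all 22, and 0 of the 22 kept their sign without it. The 22 called entries ran from -4.35 (Gm22973) to -2.003 (Gm25202, adjusted p = 0.0128), whereas the 3 uncalled ones most like U2 differed by -1.96 (Gm25259), 1.10 (Gm22073) and 1.17 (Gm22970). U1 did not share the excess: Rnu1b1 had 5 to 197 counts with NMES and 6 to 144 in controls, with 8 in J3517 and the highest values in J3537 and J3578. Its log2 difference was 0.89. Gm23442, at 15 to 36 counts with NMES and 0 to 32 in controls, was the only entry higher at an unadjusted p under 0.05 (log2 difference 1.06, edgeR adjusted p = 0.180).

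The circRNA entries carry no host gene in the table, and whether their reads crossed a back-splice junction is not given in the sources used here. Of the 7008 tested, 11 were called higher and 136 lower with NMES (edgeR), and 189 were higher and 596 lower at an unadjusted p under 0.05. Single libraries held bursts of counts: 187 circRNAs had over 50% of their KlHET counts in 1 library, and for 129 of these it was J3517, for 14 J3549, for 7 each J3578 and J3527, for 6 J3524 and for 0 J3537.
The entries mmu_circ_0008741 and mmu_circ_0008742 had the same count in every library and led the higher calls. They had 23, 25, 42, 43, 69, 77, 250 and 869 counts with NMES, against 5, 8, 9, 14, 19, 26, 32 and 44 in controls. All 8 NMES libraries were above the control median in CPM, and J3531 (869) and J3508 (250) lay far above the rest. The log2 difference was 3.30 (SE 0.67, edgeR adjusted p = 0.0172), 3.28 without J3517 (adjusted p = 0.116), and 3.32 in DESeq2 (adjusted p = 0.0002). Of the 11 higher calls, 7 had 7 or 8 NMES libraries above the control median. The 11 were picked by these same values, and the share with this pattern over all tested circRNAs was not counted. All 11 kept their sign without J3517, and 0 were then called. J3517 held the highest count of 0 of the 11 and a median of 0.51% of their KlHET counts, so leaving it out could not test their direction. mmu_circ_0008743 (2.97), mmu_circ_0000499 (1.10) and mmu_circ_0015119 (0.89) kept an unadjusted p under 0.05 in each fit that left 1 library out. Their adjusted p in those fits reached 0.156, 0.156 and 0.198 (edgeR). In contrast, mmu_circ_0002885, mmu_circ_0014311 and mmu_circ_0011655 each rested on 1 library. mmu_circ_0002885 had 129359 counts in J3508, 21.98% of that library's circRNA counts, and 1 to 72 in the other 15 libraries (log2 difference 10.40, and -0.96 in DESeq2). mmu_circ_0014311 had 4391 counts in J3527 and 2 to 27 elsewhere, and mmu_circ_0011655 had 1035 in J3527 and 1 to 15 elsewhere.
Among the lower calls, mmu_circ_0002201 had 1 to 11 counts with NMES, against 7 to 14 in 5 controls, 61 in J3549, 86 in J3510 and 6813 in J3517. Its log2 difference was -8.58 (SE 1.56, edgeR adjusted p = 0.0172), and -2.49 without J3517 (adjusted p = 0.156). mmu_circ_0006111 had 4 to 17 counts with NMES, against 8 to 16 in 5 controls, 163 in J3549, 258 in J3523 and 403 in J3517 (log2 difference -3.97, and -2.69 without J3517, edgeR adjusted p = 0.156). mmu_circ_0004468 had 24418 counts in J3517, 981 in J3549 and 5 to 136 elsewhere (-8.15, and -3.00 without J3517). mmu_circ_0006786 (-7.43, 5784 counts in J3517, and -1.48 without J3517, edgeR adjusted p = 0.516) and mmu_circ_0000285 (-3.92, 1837 in J3517 and 794 in J3549, and -2.06 without J3517, edgeR adjusted p = 0.182) completed the 5 with the smallest p. A direction with an unadjusted p under 0.05 was kept in the fit of all libraries and each fit that left 1 out by 156 of the 7008 circRNAs. Of these, 47 were higher and 109 lower. The same held for 2 of 129 miRNA entries, 4 of 341 tRNA entries, 0 of 93 snoRNAs and snRNAs and 0 of 47 tRNA families. These fits share nearly all their libraries, so they are not separate tests, and 0 circRNAs were called without J3517.

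Whether NMES acted differently in KlHET than in WT EVs was tested as the difference of the effects in the same fit. For circRNAs 0 of 7008 were called (0%), with 557 at an unadjusted p under 0.05 and 0 called by DESeq2. snoRNAs and snRNAs gave 0 of 93 (0%), with 30 at an unadjusted p under 0.05 and 0 by DESeq2. tRNA families gave 0 of 47 (0%), with 10 at an unadjusted p under 0.05, and DESeq2 calls of this difference were not counted for them. Among miRNAs 3 of 129 were called (2.33%), all with a higher effect in KlHET, and among tRNA entries 9 of 341 (2.64%), all with a lower one.
The 3 were miR-9-5p (difference of log2 effects 7.74, edgeR adjusted p = 0.0275), miR-128-3p (4.86, adjusted p = 0.0318) and miR-7a-5p (3.77, adjusted p = 0.0402). In the KlHET comparison miR-7a-5p had 226 counts in J3537, 18 to 53 in the other NMES libraries and 0 to 133 in controls. WT control library A3206 stood at 39636 CPM for miR-9-5p, where the other WT controls reached at most 777 CPM. For miR-128-3p it stood at 116380 CPM against at most 2565 CPM, and for miR-7a-5p at 36881 CPM against at most 3469 CPM. Without A3206 the differences were 3.65, 1.49 and 1.62 (adjusted p = 0.271, 0.477 and 0.381, edgeR). Without J3537 they were 5.69, 3.47 and 2.85 (adjusted p = 0.110, 0.110 and 0.122, edgeR). Each of the 3 calls was thus lost without either library, and edgeR also called 0 miRNAs without WT NMES library A3203, A3205, A3207 or A3209.
The 9 tRNA entries were all copies of Ala-AGC, with differences of -7.40 to -7.19 (edgeR adjusted p = 0.0402). Without J3517 they were -1.25 to -1.18, with adjusted p of 0.563 or more, and 17 of the 28 fits that left out 1 library called 0. For miR-221-3p, the KlHET effect was -2.85 and the WT effect 0.09, at 419 to 1186 CPM in WT NMES and 345 to 1256 CPM in WT control libraries, and the difference of -2.94 was not called (edgeR adjusted p = 0.110).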

How the data were processed

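Per the labels, EV RNA was purified from plasma with a column kit, made into small RNA libraries and sequenced as single-end reads, 1 library per mouse. The authors aligned reads with STAR 2.5.3a, counted them per annotated RNA with COMPSRA 1.0.3 against mm10 and used DESeq2 1.42.1. The deposited values are raw counts, with no molecular identifiers. How reads that map to several places were counted is not given in the sources used here, so copies of a tRNA or snRNA can share reads. The table holds 18710 entries: 15384 circRNAs, 1240 miRNA entries (537 precursors), 464 tRNAs, 865 snoRNAs, 753 snRNAs and 4 others, which were not used.

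For each class, entries kept by edgeR's filterByExpr were scaled by TMM and fitted with edgeR 4.0.16 (R 4.3.3) over all 28 libraries with 1 mean per group, with Benjamini-Hochberg adjustment within the class. snoRNAs and snRNAs shared 1 fit. CPM are counts per 1000000 TMM-scaled counts of the class. DESeq2 1.42.0 was an alternative, beside other scalings and filters, a robust fit, the 16 KlHET libraries alone, mature arms only, and libraries left out. The fits without J3517 and J3578, and without J3517, J3549, J3578 and J3537, were chosen after the profiles had been seen. Shares and numbers detected were tested by exact permutation over all splits of 8 against 8, of which the smallest possible p is 0.000155. The edgeR procedure was also run on simulated counts, in which no library was made to stand apart. That simulation cannot tell how reliable calls are that rest on 1 library.

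The comparison, the miRNA lists and the rule for named entries were chosen with earlier results of these data known. Named were the called entries (all where 15 or fewer), the 5 smallest p in each direction, entries called for the difference between genotypes, the 10 most counted miRNAs and tested list members. Others, such as miR-328-3p, Glu-CTC, Rnu2-10, mmu_circ_0008743, mmu_circ_0000499, mmu_circ_0015119 and members of lists below the filter, were named after their values had been seen. Of 129 tested miRNA entries 92 matched a RefSeq mature sequence.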

Additional observations from a re-analysis of the deposited data

Results flagged for a closer look

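Among 124 sets of 8 libraries, 42 held a highest or lowest library that stood apart by Dixon's ratio. Chance flags about 1 in 20 independent, unselected sets, which is no baseline here, since many of these entries were named for a small p and some are copies with the same counts. KlHET NMES libraries came up for mmu_circ_0002885 (129359 counts in J3508), mmu_circ_0011655 (1035 in J3527), mmu_circ_0014311 (4391 in J3527), miR-8117 (652 in J3527), Gm25052 (244) and Gm23661 (220) in J3527, and miR-9-5p (332), miR-218-5p (134) and miR-128-3p (484) in J3537. The low ones were miR-221-3p (2 counts in J3531), Gln-TTG (8), Gln-CTG (25) and Pro-TGG (83) in J3508, and Met-CAT (4) in J3514.

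Of the controls, J3517 was highest for mmu_circ_0002201 (6813 counts), mmu_circ_0006786 (5784), mir-6240 (14103), miR-8109 (2447), miR-8117 (43440), tRNA-Ala-AGC-5-1, 5-2 and 5-3 (4980 each), 10-1 (4977) and 12-1 (4974). It was also highest for the U2-like Gm25052 (2008), Gm23661 (1836), Gm24840 (2896), Gm25007 (3563) and Gm23345 (2650), for the families Cys-GCA (79420), Ala-AGC (45009), Gln-TTG (18659), Gln-CTG (19475), Ala-CGC (998), Pro-TGG (4553) and Arg-CCT (329), and for the snRNA share (6.27%). J3517 was lowest for miR-375-3p and miR-7a-5p (0 counts each) and Lys-TTT (1103). J3578 was highest for mir-133a-2 (1307 counts) and the snoRNA share (0.256%).

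The NMES effect differed between KlHET and WT by a log2 of 7.74 for miR-9-5p, 4.86 for miR-128-3p and 3.77 for miR-7a-5p. For copies of tRNA-Ala-AGC the differences were -7.40 (7-1), -7.39 (6-1), -7.24 (5-1, 5-2, 5-3, 10-1 and 12-1) and -7.19 (4-1 and 4-2).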

How the results depend on the processing

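The depth of the miRNA counts limits what could be called, and the treatment calls in KlHET EVs rest on few libraries. Among the alternatives, TMM over all classes left the number called within 1.5 times of its value in all 5 sets tested. The cause of the changes below was not tested. No paired analysis was possible because the labels number no replicates and tie no libraries of the groups together.

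The 147 circRNA calls became 37 under library size alone, 18 with DESeq2, 79 with a robust fit and 0 with the 16 KlHET libraries only. The 6 miRNA calls became 0 under library size alone, 1 with DESeq2, 0 with the 16 KlHET libraries only, 20 with no filter and 3 with mature arms only. The 54 tRNA calls became 33 with TMMwsp, 0 under library size alone, 20 with DESeq2 and 0 with the 16 KlHET libraries only. The 22 snoRNA and snRNA calls became 0 under library size alone, 0 with DESeq2, 0 with the 16 KlHET libraries only, 0 with at least 10 counts in 8 libraries and 4 with no filter, all higher. The 9 family calls became 4 with TMMwsp and 0 under library size alone, with DESeq2 and with the 16 KlHET libraries only. Without J3517 and J3578, and without J3517, J3549, J3578 and J3537, edgeR called 0 in each of the 5 sets. For the difference between genotypes, the 3 miRNA calls became 1 under library size alone, 1 with DESeq2, 1 without J3517 and J3578 and 0 without the 4 libraries, and the 9 tRNA calls became 0 in all 4 of these fits. Leaving out 1 library at a time gave 0 to 199 circRNA, 0 to 7 miRNA, 0 to 61 tRNA, 0 to 23 snoRNA and snRNA and 0 to 15 family calls. For the difference between genotypes it gave 0 to 6 miRNA, 0 to 9 tRNA and 0 to 6 snoRNA and snRNA calls. The count of 0 came without J3517 for circRNAs, without J3537 for miRNAs (2 were left without J3517), without J3517 or J3508 for tRNAs, and without J3517, J3519 or J3524 for families. Without any 1 NMES library 54 to 95 circRNAs were called. Of tRNAs, 21 were called without J3512, 24 without J3531, 32 without J3514 or J3519, 33 without J3528 or J3549 and 34 without J3578, and of families 4 without J3514, 5 without J3515, 14 without J3510 and 15 without J3523. snoRNA and snRNA calls were 0 without any 1 of 10 libraries (J3514, J3524, J3527, J3531, J3515, J3517, J3523, J3526, J3528 and J3578).

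Shares and numbers detected did not pass the test under any alternative, and some turned sign. As log10 of the class total, the circRNA difference was -0.0639. The difference in share was 0.267 percentage points for miRNAs and 0.290 for snRNAs without J3517 and J3578, and 0.296 and 0.209 without the 4 libraries. For snRNAs it ran from -0.587 to 0.245 with 1 library left out. The difference in numbers detected was 127 circRNAs and 2.75 snRNAs at 5 counts or more, and 512 circRNAs, 8 miRNAs and 5.13 snRNAs after thinning to the smallest total. It was 10.2 circRNAs and 2.83 miRNAs without J3517 and J3578, and 16.2 and 10.8 without the 4 libraries. With 1 library left out it ran from -151 to 123 circRNAs and from -32.9 to 20.4 miRNAs.

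Of 289 entries examined singly, 122 changed sign under at least 1 of the 5 scalings, 79 of them with a log2 difference under 0.5 in size under TMM. Called entries named by the rule turned sign as follows. For mmu_circ_0002885 the value was -0.96 with DESeq2 and -1.02 to 11.17 with 1 library left out. For mmu_circ_0014311 it was -0.045 with DESeq2 and -0.024 to 6.13 with 1 left out. miR-8109 gave 1.78 with DESeq2, 1.61 without J3517 and J3578, and -6.96 to 1.83 with 1 left out. miR-8117 gave 2.64 without J3517 and J3578 and -11.35 to 2.84 with 1 left out. tRNA-Ala-AGC-5-1, 5-2, 5-3, 10-1 and 12-1 gave 0.14 with DESeq2, 0.12 without J3517 and J3578, and -6.15 to 0.15 with 1 left out. Without J3517 and J3578 the U2-like entries gave 0.41 (Gm25052), 0.21 (Gm23661), 0.081 (Gm24840), 0.14 (Gm25007) and 0.034 (Gm23345). With DESeq2 they gave 0.43 (Gm23661), 0.27 (Gm24840), 0.33 (Gm25007) and 0.25 (Gm23345). With 1 library left out they ran from -4.21 to 0.56 (Gm25052), -3.82 to 0.34 (Gm23661), -3.69 to 0.20 (Gm24840), -3.91 to 0.27 (Gm25007) and -3.66 to 0.17 (Gm23345). Of the families, DESeq2 gave 0.11 for Cys-GCA, 0.29 for Ala-AGC, 0.82 for Gln-TTG and 0.11 for Gln-CTG. Without J3517 and J3578 Ala-AGC gave 0.29, Gln-TTG 0.76 and Gln-CTG 0.63. With 1 library left out Cys-GCA ran from -4.80 to 0.041, Ala-AGC from -3.46 to 0.31, Gln-TTG from -4.72 to 0.80 and Gln-CTG from -4.03 to 0.66. Ala-CGC gave 0.041 under library size alone.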
